A study of Homo sapiens with 4 samples.

Results

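The transcripts described here encode the E2F transcription factors E2F1 to E2F8 and the retinoblastoma proteins RB1 and RBL1, 10 genes of the 17687 gene symbols named on the array. They were taken as a gene family by symbol, with earlier results of these data already known, and each had 1 feature (the summary value of several short probes). All 10 were measured on all 4 arrays. The cells were HeyA8-MDR, a human ovarian carcinoma line selected for multidrug resistance and grown with 15% serum and 300 ng/ml paclitaxel. In the control group (2 arrays) the cells received a control microRNA inhibitor, and in the inhibitor group (2 arrays) an inhibitor of miR-204-5p; both groups were HeyA8-MDR cells in the same medium. The labels give 1 treatment note for every array, so the groups rest on the sample titles and the design text, and neither dose nor time is given in the sources used here. The values are log2 expression, so a difference of -1 is a halving, and the table held 21448 features.

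E2F proteins bind DNA as heterodimers with a DP partner and switch on genes for DNA synthesis as cells pass from G1 into S phase. In resting and early G1 cells the retinoblastoma, or pocket, proteins bind E2F factors and hold those genes silent, until cyclin-dependent kinases phosphorylate the pocket proteins and release them. E2F1, E2F2 and E2F3 are mainly activators, E2F4 and E2F5 act mostly with pocket proteins as repressors, and E2F6, E2F7 and E2F8 repress without binding a pocket protein. E2F1, E2F2, E2F7, E2F8 and RBL1 are themselves known E2F target genes.

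The microRNA that the inhibitor is directed against is shown first, with its seed (bases 2 to 8) in capitals, from RefSeq on GRCh38.p14. The seed is the same in miR-211-5p, and any action of the inhibitor on that microRNA was not tested.
miR-204-5p: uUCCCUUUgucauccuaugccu

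Promoter sequences were examined because several of these genes are regulated by E2F itself. RefSeq windows of 250 bases before to 50 bases after a transcription start (GRCh38.p14) were matched for 8 members, and 7 were used. The window listed for RB1 starts inside the gene and was left out. The windows examined included none for E2F5 or E2F8, which does not show that none exists for them. Both strands were searched for TTTCGCG and TTTGGCG, versions of the core of an E2F site; no printed match overlaps another. TTTCGCG was in 1.32% and TTTGGCG in 1.92% of all 35116 windows, and both were in 0.0456%. E2F1, E2F2 and RBL1 held both, the first window of E2F3 held TTTCGCG, and E2F4, E2F6 and E2F7 held neither. The 100 bases before the start are printed below for the 4 genes with a match and for E2F7, with matches in capitals, on the strand of the gene.
E2F1, chr20:33686386-33686485, minus strand: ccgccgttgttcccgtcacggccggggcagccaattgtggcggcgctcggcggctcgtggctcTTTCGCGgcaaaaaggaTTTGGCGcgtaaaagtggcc
E2F2, chr1:23531234-23531333, minus strand: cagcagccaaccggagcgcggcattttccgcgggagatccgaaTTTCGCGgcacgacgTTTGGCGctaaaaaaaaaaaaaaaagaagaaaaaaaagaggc
E2F3, chr6:20401779-20401878, plus strand: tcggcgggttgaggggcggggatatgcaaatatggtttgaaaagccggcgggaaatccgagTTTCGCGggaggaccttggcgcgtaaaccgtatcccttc
RBL1, chr20:37095998-37096097, minus strand: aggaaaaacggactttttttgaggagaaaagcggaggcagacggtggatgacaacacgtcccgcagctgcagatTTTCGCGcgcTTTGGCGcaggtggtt
E2F7, chr12:77065570-77065669, minus strand: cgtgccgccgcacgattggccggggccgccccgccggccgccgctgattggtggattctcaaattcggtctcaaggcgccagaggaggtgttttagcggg
The pair of matches began 37 and 20 bases before the start in E2F1, 57 and 42 bases before it in E2F2, and 26 and 16 bases before it in RBL1. The single match in E2F3 began 39 bases before the start, and the second E2F3 window, for a later start, held neither motif. A match is a string of letters and was not tested as a binding site. Other versions of the core were not searched, so a window without a match may still hold an E2F site.

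Array medians lay between 5.59 and 5.68 log2 units, and the correlation over features was 0.995 for the control pair, 0.986 for the inhibitor pair and at least 0.984 for pairs from different groups. The median difference of all features was -0.07, and bright features tended to be lower in the inhibitor arrays, so each member is also read after a second quantile normalization, which brings that median to -0.004. The carcinoma keratins KRT7, KRT8 and KRT18 and the lineage factor PAX8 were measured at 8.31 or above on every array, and the resistance transporter gene ABCB1 had 7.68 and 7.77 on the control arrays, against 7.67 and 7.55 on the inhibitor arrays. EPCAM, MSLN, FOLR1 and WFDC2 lay among the dimmest 25% of features, up to a mean of 3.965. The other carcinoma markers listed, MUC16, KRT19 and WT1, had means over the 4 arrays of 4.58, 5.365 and 6.48. Summed log2 levels of 7 leukocyte markers were 34.66 and 35.19 on the control arrays, against 35.04 and 35.42 on the inhibitor arrays. Those of 7 endothelial markers were 32.47 and 32.61, then 31.97 and 31.91, and those of 7 fibroblast markers were 32.68 and 31.52, then 30.79 and 31.21. Among the endothelial markers CDH5, the gene of VE-cadherin, had 8.13 and 8.06, then 7.01 and 7.03 (difference -1.075, SE 0.14, limma adjusted p = 0.10), while the median difference of the 7 was 0.045. The part of these markers in the results was not tested. The level of miR-204-5p was not analysed here. Nothing says that the arrays of a group came from separate cultures, so the spread behind each p-value may be technical.

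The comparison asked which members of the family differ between the inhibitor and control arrays. E2F8, E2F3 and E2F1 had the most negative differences among the 10 members, at -1.255, -1.0 and -0.94 log2 units, while E2F7 was higher by 0.605. E2F4 and RBL1 were lower by about 1.4-fold (1.39-fold and 1.42-fold), and E2F2, E2F5, E2F6 and RB1 had 95% intervals that include 0. The difference was below 0 for 8 of 10 members, as it was for 59.2% of all features. In limma's moderated test 0 of the 10 members passed an adjusted p of 0.05, against 0.0513% of all features (11, all higher with the inhibitor). At an unadjusted p under 0.05, 5 members were lower, where 12.8% of all features were, and 1 was higher, where 5.11% were. After the second quantile normalization these counts were 3, where 7.1% of all features were lower, and 1, where 6.57% were higher. Without control array 1 the median difference of the 10 members was -0.5025, beside -0.09 for all features. Without control array 2 these were -0.3075 and -0.055. An ordinary test without moderation also gave 0 members at the adjusted threshold. When limma's expected spread was allowed to vary with level (an intensity trend), 5 members fell (E2F1, E2F3, E2F4, E2F8 and RBL1) where 6.09% of all features did, and E2F7 rose where 1.02% did. In 7 members both inhibitor arrays lay below both controls, which held for 33.8% of all features, and in 2 members both lay above, which held for 16.5%. With all 4 arrays the median difference of the 10 members was -0.405, beside -0.07 for all features. An exact permutation test of 2 against 2 arrays cannot give a p below 0.333.

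**Figure D1:**
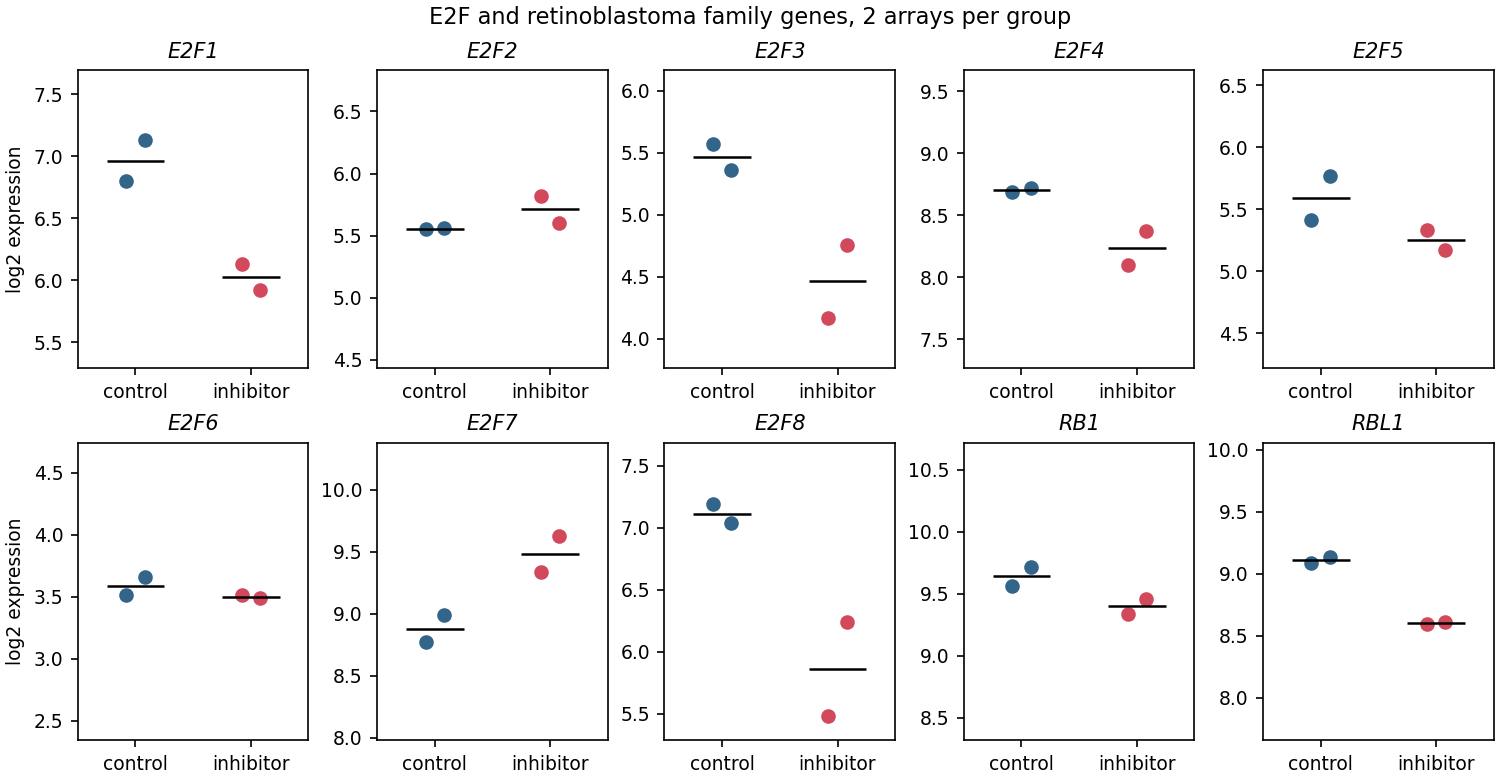
Log2 expression of the 10 family genes on each array, with controls in blue, inhibitor arrays in red and horizontal lines for group means; every panel spans the same number of log2 units. Both inhibitor arrays lie below both controls for E2F1, E2F3, E2F4, E2F5, E2F8, RB1 and RBL1 and above them for E2F2 and E2F7.

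E2F1, the founding activator of the family, which can also drive apoptosis, read 6.80 and 7.13 on the control arrays, against 6.13 and 5.92 on the inhibitor arrays. The groups did not overlap, with a gap of 0.67 between the lowest control and the highest inhibitor array. The difference of -0.94 (SE 0.175, 95% interval -1.36 to -0.52) corresponds to 1.92-fold lower and had an unadjusted p of 0.0011 and an adjusted p of 0.14 in limma. Of all features, 0.289% had a more negative difference. After the second quantile normalization the difference of E2F1 was -0.82.

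E2F3, an activator whose gene produces a long and a short protein from separate starts, read 5.57 and 5.36 on the control arrays, against 4.17 and 4.76 on the inhibitor arrays. Both inhibitor arrays were lower, and they stood 0.59 apart. The difference of -1.0 (SE 0.219, 95% interval -1.52 to -0.48) is 2-fold lower, with a limma adjusted p of 0.15. Leaving out inhibitor array 1 made it -0.705, and leaving out inhibitor array 2 made it -1.295. The gene had 1 feature, so the 2 forms were not separated.

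E2F2, the remaining activator, read 5.55 and 5.56 on the control arrays, against 5.82 and 5.60 on the inhibitor arrays. Both inhibitor arrays lay above the controls, the second by 0.04 only. The difference of 0.155 (SE 0.151, 95% interval -0.204 to 0.514; limma adjusted p = 0.62) was within the spread between arrays, and without inhibitor array 1 it was 0.045. E2F2 shares with E2F1 and RBL1 the pair of motifs printed above, and its values lay on the other side of the controls from theirs. Taken within each array, E2F2 minus E2F1 was -1.25 and -1.57 on the control arrays, against -0.31 and -0.32 on the inhibitor arrays, a comparison free of any shift common to an array. The gap between the 2 genes therefore changed by 1.095 log2 units (exact permutation p = 0.333, two-sided, the smallest this design allows).

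E2F4, a repressor abundant in resting cells, read 8.69 and 8.72 on the control arrays, against 8.10 and 8.37 on the inhibitor arrays. Both inhibitor arrays were lower, and the difference was -0.47 (SE 0.157, 95% interval -0.843 to -0.097; unadjusted p = 0.021 and adjusted p = 0.22 in limma). It shrank to -0.27 after the second quantile normalization. E2F5, its close relative, had 5.41 and 5.77 on the control arrays, against 5.33 and 5.17 on the inhibitor arrays. Its groups were separated by 0.08 only, and its difference of -0.34 (SE 0.175, 95% interval -0.756 to 0.076) had a limma adjusted p of 0.36. Without control array 2 it was -0.16, and without control array 1 it was -0.52.

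E2F6, which represses through a variant Polycomb complex and lacks the pocket-binding region, had 3.51 and 3.66 on the control arrays, against 3.51 and 3.49 on the inhibitor arrays. It was the 1 member whose groups overlapped, and its mean lay among the dimmest 25% of features. Its difference was -0.085 (SE 0.144, 95% interval -0.429 to 0.259; limma adjusted p = 0.79). Whether this transcript was detected is unknown, since background signal was not analysed here.

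The atypical factors E2F7 and E2F8, which carry 2 DNA-binding domains, work without a DP partner and repress E2F1 and other E2F targets late in S phase, went in opposite directions. E2F8 had 7.19 and 7.04 on the control arrays, against 5.48 and 6.24 on the inhibitor arrays. All inhibitor values were lower by at least 0.80, and the inhibitor arrays differed from each other by 0.76. The E2F8 difference was -1.255 (SE 0.252, 95% interval -1.85 to -0.66), or 2.39-fold lower, with an unadjusted p of 0.0018 and an adjusted p of 0.14 in limma, and 0.0326% of all features had a more negative one. Leaving out inhibitor array 1 made it -0.875, and leaving out inhibitor array 2 made it -1.635.

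E2F7, which p53 is also known to induce, had 8.77 and 8.99 on the control arrays, against 9.34 and 9.63 on the inhibitor arrays. Both inhibitor arrays were higher, with a gap of 0.35. The E2F7 difference was 0.605 (SE 0.17, 95% interval 0.200 to 1.01), or 1.52-fold higher, with an unadjusted p of 0.0098 and an adjusted p of 0.18 in limma, and 98.1% of all features had a lower one. After the second quantile normalization it was 0.82. Within each array E2F7 minus E2F8 was 1.58 and 1.95 on the control arrays, against 3.86 and 3.39 on the inhibitor arrays, so the gap between these relatives widened by 1.86 log2 units (exact permutation p = 0.333, two-sided, the smallest possible). This pair and the E2F2 and E2F1 pair were picked after their values were seen.

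RBL1 encodes p107, a pocket protein that binds mainly E2F4 and E2F5 and is made as cells enter S phase. It had 9.09 and 9.14 on the control arrays, against 8.60 and 8.61 on the inhibitor arrays. The arrays of each group lay within 0.05 of each other, and the groups did not overlap. Its difference was -0.51 (SE 0.139, 95% interval -0.841 to -0.179; unadjusted p = 0.0085 and adjusted p = 0.18 in limma), and -0.30 after the second quantile normalization.

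RB1, the retinoblastoma tumour suppressor, had 9.56 and 9.72 on the control arrays, against 9.34 and 9.46 on the inhibitor arrays. The groups were 0.10 apart, and the difference of -0.24 (SE 0.149, 95% interval -0.594 to 0.114) had a limma adjusted p of 0.43. After the second quantile normalization it was -0.02. RBL2, which encodes the third pocket protein p130 and is not counted among the 10 members, had 7.18 and 7.21 on the control arrays, against 6.88 and 6.84 on the inhibitor arrays. The RBL2 difference was -0.335 (SE 0.139, limma adjusted p = 0.28).

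**Figure D2:**
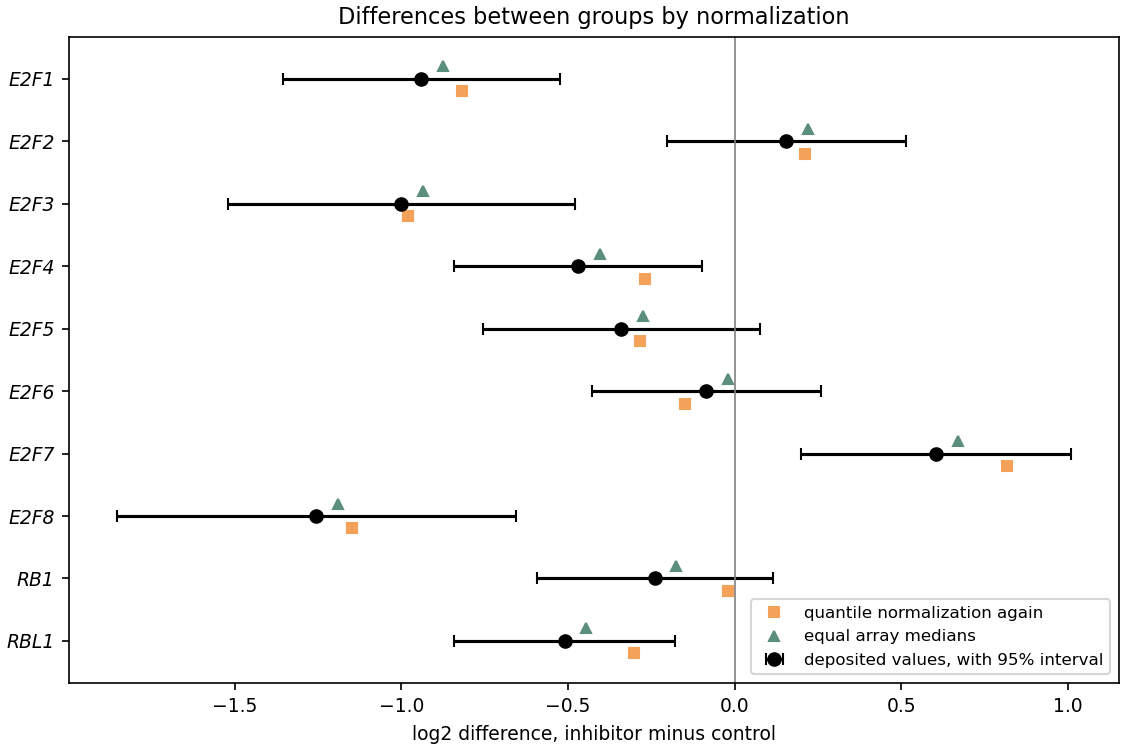
Log2 difference between inhibitor and control arrays for each family gene, with the 95% interval of the moderated test (black), after quantile normalization again (orange squares) and with equal array medians (green triangles). The signs are the same under all 3, and RB1, RBL1 and E2F4 move the most toward 0 after quantile normalization, RB1 to -0.02.

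Where the members lie among all features is shown in the plot of difference against mean level. E2F4, RB1, RBL1 and E2F7 are among the bright features, with means of 8.47, 9.52, 8.86 and 9.18, where the bulk of features was lower in the inhibitor arrays.

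**Figure D3:**
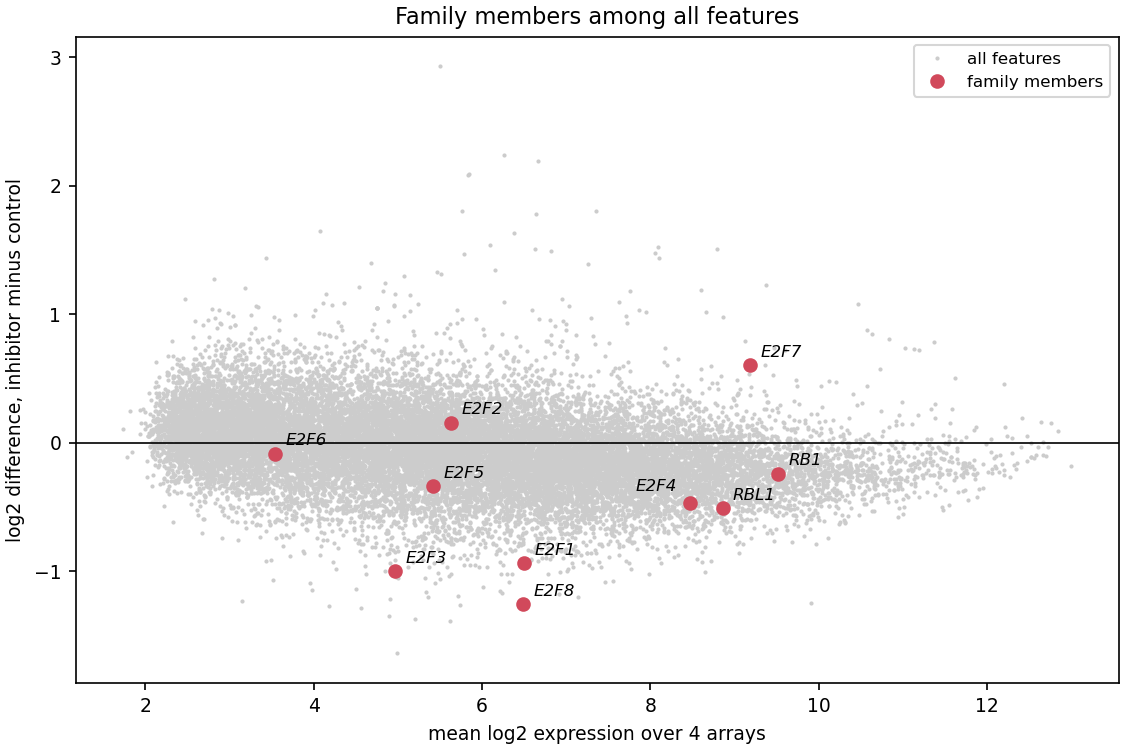
Log2 difference between inhibitor and control arrays against the mean log2 level over 4 arrays, for all 21448 features (grey) and the 10 family genes (red). E2F1, E2F3 and E2F8 lie along the lower edge of the cloud and E2F7 along its upper edge at its level.

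Profiles most like those of E2F1 and RB1 were sought as the smallest distance between log2 values centred on each gene's mean over the 4 arrays. For E2F1 these were AFG2B at a distance of 0.0296, MBNL3 at 0.0964 and SPAG5, a spindle gene, at 0.0985. AFG2B had 6.39 and 6.70 on the control arrays, against 5.69 and 5.47 on the inhibitor arrays. For RB1 they were CTNNB1, the gene of beta-catenin, at 0.0141, and TM9SF4 and TMEM52, both at 0.0166. With 4 arrays such likeness is a description only.

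Around the family, 181 of 193 listed pathway genes were measured, in 9 lists, and 0 of these genes passed an adjusted p of 0.05 in limma. Some genes are counted in 2 lists. CCNE1, CCNE2 and CDC25A are both upstream of RB1 and among the G1 and S targets. SKP2 is in the upstream list and the list of E2F turnover, and CDC20 is in the mitotic and turnover lists. The list counts below at an unadjusted p under 0.05 are to be read against 12.8% of all features lower and 5.11% higher, and against 7.1% and 6.57% after the second quantile normalization; 59.2% of all features were below 0. Among 11 partners and subunits (the DP partners, RBL2, the MuvB core that joins pocket proteins or B-MYB, and its activators) all 11 were lower and 4 were lower at an unadjusted p under 0.05, with a median of -0.335. With quantile normalization repeated, 9 were lower and 2 higher, 1 at that limit, with a median of -0.15. Without control array 1 the median of the 11 was -0.35, beside -0.09 for all features. Without control array 2 these were -0.305 and -0.055. TFDP1, which encodes the main DP partner, had 9.94 and 10.12 on the control arrays, against 9.69 and 9.56 on the inhibitor arrays, a difference of -0.405 (SE 0.151). TFDP2 had 8.16 and 7.95, then 7.76 and 7.95, and these overlapped. MYBL2, the gene of B-MYB, differed by -0.52 (SE 0.154) and the MuvB subunit LIN9 by -0.56 (SE 0.18). FOXM1, a driver of mitotic genes that joins MuvB in G2, differed by -0.285 (SE 0.142).

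A further list held 21 measured genes upstream of RB1, namely cyclins, kinases, their inhibitors, phosphatases, SKP2, FBXW7 and MYC. Of these 6 were lower and 1 was higher at an unadjusted p under 0.05, beside 12.8% and 5.11% of all features. The median was -0.155. Of the 21 genes, 20 lay at or above the median level of all features. Their median was -0.185, beside -0.165 for all features at such levels. Cyclin E2 (CCNE2) differed by -0.515 (SE 0.139), cyclin D2 (CCND2) by -0.40 (SE 0.142), the phosphatase gene CDC25A by -0.71 (SE 0.245) and SKP2, which directs destruction of the inhibitor p27, by -0.60 (SE 0.139). The 1 higher gene was CDKN1A, which encodes the kinase inhibitor p21, with 8.84 and 8.85 on the control arrays, against 9.09 and 9.37 on the inhibitor arrays. It is named for being the only one and was chosen after its values were seen. Of these 21 genes, normalized by quantiles again, 11 were lower and 10 higher, 2 and 1 of them at that limit, with a median of -0.01, and leaving out either control array brought the counts of 6 and 1 to 1 and 0.

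Known targets of E2F in G1 and S phase were lower in all 57 measured cases, 49 of them at an unadjusted p under 0.05, with a median of -0.585; 12.8% of all features passed that limit on the lower side, and their median was -0.07. Under the second quantile normalization 55 were lower and 33 passed that limit, beside 7.1% of all features, with a median of -0.40. All 57 lay at or above the median level of all features, and features at such levels had a median difference of -0.165. In a limma fit of those features alone, 51 of the 57 were lower at that limit, beside 2920 of 10739 features. The replication factor GINS1 had 8.07 and 8.27 on the control arrays, against 7.23 and 7.27 on the inhibitor arrays. The exonuclease EXO1 differed by -0.97 (SE 0.172), the mismatch repair gene MSH6 by -0.94 (SE 0.167) and BARD1, the partner of BRCA1, by -0.88 (SE 0.144). Their limma adjusted p-values were 0.12 for GINS1 and BARD1 and 0.13 for EXO1 and MSH6.

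Mitotic targets of the MuvB complexes were lower in all 36 cases, 27 of them at an unadjusted p under 0.05, beside 12.8% of all features, with a median of -0.53. Once quantiles were normalized again 35 were lower and 16 passed, beside 7.1% of all features, with a median of -0.32. All 36 lay at or above the median level, where the median difference of all features was -0.165. In the fit of those features alone 31 of the 36 were lower at that limit, beside 2920 of 10739 features. CDCA3, which promotes entry into mitosis, differed by -0.84 (SE 0.141), the kinetochore genes CENPF and NUF2 by -0.725 (SE 0.145) and -0.665 (SE 0.143), and the spindle motor KIF11 by -0.66 (SE 0.14). In fits with fewer degrees of freedom, leaving out control array 1 gave a median of -0.59 for G1 and S targets and -0.5475 for mitotic targets. The median of all features was then -0.09. Without control array 2 the 3 medians were -0.57, -0.495 and -0.055. The lower level of these genes is already part of the earlier description of these data and is no independent evidence.

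**Figure D4:**
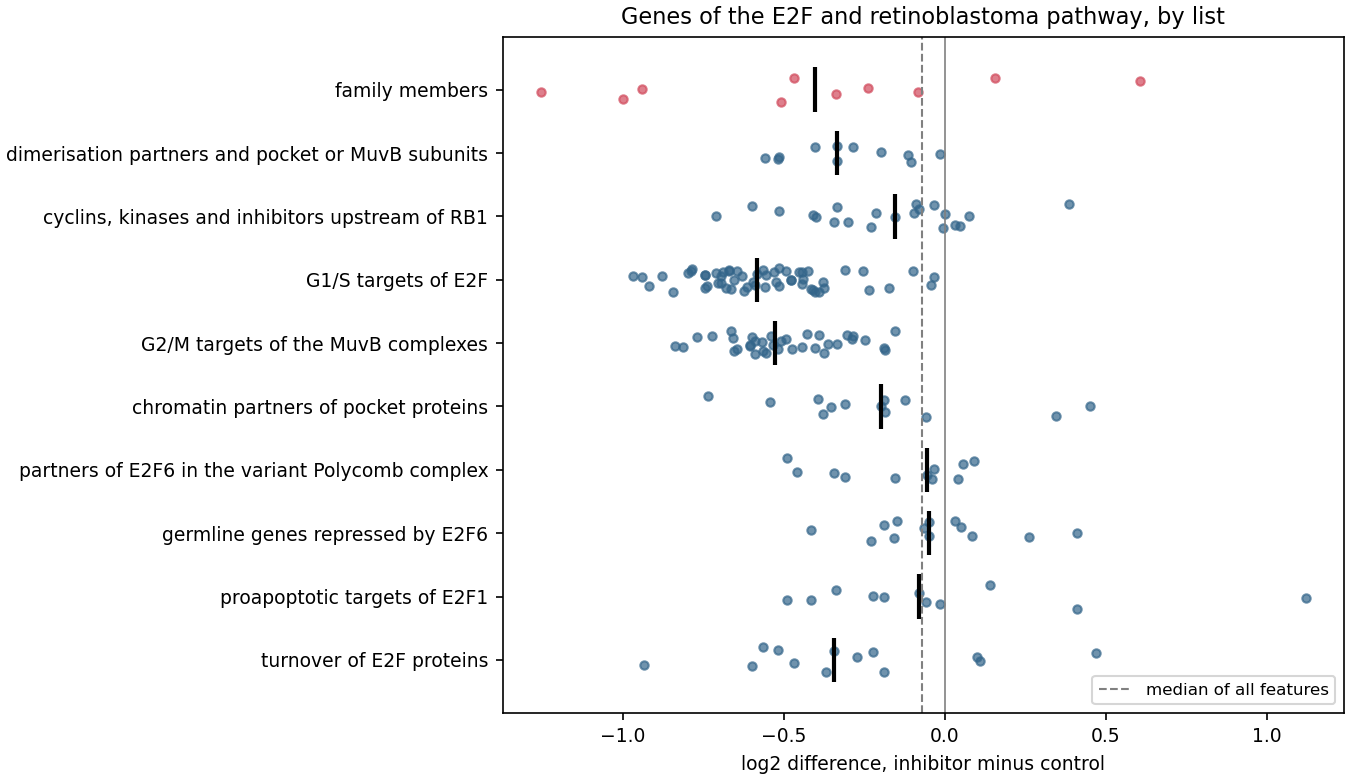
Log2 difference between inhibitor and control arrays for the family (red) and for the measured genes of 9 pathway lists (blue), with a black bar at each median, a dashed line at the median of all features and vertical scatter for display only. All points of the G1/S and G2/M target lists lie below 0, with medians of -0.585 and -0.53.

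Genes that degrade or stabilise E2F proteins were lower in 6 and higher in 1 of 13 cases at an unadjusted p under 0.05, beside 12.8% and 5.11% of all features, with a median of -0.345. At that limit 4 were lower and 1 was higher after the second quantile normalization, with a median of -0.18. The median of the 13 was -0.39 without control array 1, beside -0.09 for all features. Without control array 2 these were -0.285 and -0.055. FBXO5, which encodes an inhibitor of the anaphase-promoting complex and is itself an E2F target, had 7.42 and 7.65 on the control arrays, against 6.62 and 6.58 on the inhibitor arrays, a difference of -0.935 (SE 0.152, limma adjusted p = 0.12). CCNF, the cyclin whose ligase marks several E2F proteins for destruction, differed by -0.52 (SE 0.145), and CDC20, an activator of the anaphase-promoting complex, by -0.565 (SE 0.14). The 1 higher gene was MDM2, the ligase of p53, at 0.47 (SE 0.145), which is named after its values were seen.

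Of 13 chromatin proteins that work with pocket proteins 3 were lower and 1 was higher at that limit, beside 12.8% and 5.11% of all features, and 1 and 1 were after the second quantile normalization. The median of the 13 was -0.2 with every array, -0.205 without control array 1, -0.305 without control array 2 and -0.23 without inhibitor array 2. The medians of all features in the last 3 fits were -0.09, -0.055 and -0.085. The histone methyltransferase SUV39H1 differed by -0.735 (SE 0.171), the remodelling ATPase SMARCA4 by -0.545 (SE 0.153), the RB1-binding protein gene EID1 by -0.395 (SE 0.143) and the SIN3 complex gene ARID4B by 0.45 (SE 0.181). Of 11 partners of E2F6, 8 were below 0 and 3 above, with a median of -0.055, or 4 and 7 with a median of 0.05 after the second quantile normalization. At the unadjusted limit 2 were lower, CBX3 at -0.46 (SE 0.149) and L3MBTL2 at -0.49 (SE 0.166), a count that was 1 after that normalization and 0 without either control array. WDR5 and EHMT2 had differences of -0.31 and -0.345 and did not reach it. Of 13 germline genes that E2F6 represses, 1 was lower and 0 higher at that limit, where 12.8% and 5.11% of all features were, and the 1 was lost without either control array. Of the 13, 10 lay among the dimmest 25% of features, TUBA3D, DDX4 and HORMAD1 among them. TUBA3D differed by -0.415 (SE 0.158), TDRKH by 0.26 (SE 0.142), DDX4 by 0.41 (SE 0.27) and HORMAD1 by -0.23 (SE 0.155).

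Of 11 proapoptotic genes that E2F1 can induce, 1 was lower and 2 were higher at an unadjusted p under 0.05, beside 12.8% and 5.11% of all features, and the median of -0.08 was close to that of all features. The second quantile normalization gave 0 lower and 2 higher with a median of 0.02, and leaving out either control array left 0 lower and 1 higher. TP53INP1, which is also a p53 target, had 6.43 and 6.35 on the control arrays, against 7.56 and 7.46 on the inhibitor arrays, a difference of 1.12 (SE 0.143, limma adjusted p = 0.10). PMAIP1, the gene of NOXA, differed by 0.41 (SE 0.145), CASP8 by -0.415 (SE 0.14) and CASP9 by -0.49 (SE 0.21).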

How the data were processed

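Total RNA of 4 samples was measured on Affymetrix Human Clariom S arrays. Per the submitters' processing notes, the deposited log2 values come from RMA run in Transcriptome Analysis Console 4.0; its parameters and the genome build are not given in the sources used here. Symbols came from the platform annotation (17709 of 21448 features had 1 symbol, 3739 none), and the brightest feature stood for a symbol. The inhibitor arrays were compared with the controls in limma 3.58.1 under R 4.3.3 (lmFit, eBayes; 2 residual and 4.78 prior degrees of freedom) on all features, with Benjamini-Hochberg adjustment over all of them and no filter. Arrays have no depth, so their number limits precision. The fit was tested on simulated data. The members and lists were chosen with earlier results of these data known. Named genes were the members, RBL2, TFDP1, TFDP2, MYBL2, FOXM1, ABCB1, up to 4 genes per list with the largest absolute moderated statistic, and 3 nearest profiles each for E2F1 and RB1. CDKN1A, MDM2, CDH5 and the genes grouped by promoter motif fall outside this rule and were named after their values were seen. Promoter and microRNA sequences were RefSeq's. Replicate numbers are shared between groups, but deviations of same-numbered arrays did not correlate (r = 0.0058), so they were not used for pairing. Alternatives were an intensity trend, robust or no moderation, a replicate block, 2 normalizations, filters on dim features, averaged features and leaving out each array.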

Additional observations from a re-analysis of the deposited data

How the results depend on the processing

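The sign of every member's difference was the same in each of the settings in which it was tested. The count of 11 features past an adjusted p of 0.05 became 1525 with an intensity trend, 559 with that trend after quantile normalization, 4 without moderation, 0 with the replicate block, 0 after quantile normalization, 38 and 1011 among features at or above the 25th percentile and the median, and 0 in each fit with 1 array left out. The count of 0 family members became 6 with the intensity trend (E2F1, E2F3, E2F4, E2F8 and RBL1 lower, E2F7 higher). In these directions 6.09% and 1.02% of all features passed. With trend and quantile normalization together the count was 3 (E2F1 and E2F8 lower, E2F7 higher). There 255 of 21448 features passed as lower and 304 as higher. At or above the median, where 6 members were tested, it was 4 (E2F1, E2F8 and RBL1 lower, E2F7 higher). There 867 of 10739 features passed as lower and 144 as higher. The replicate block left the count of members at 0. The count of 5 members lower at an unadjusted p under 0.05 became 2 without moderation, where 2044 of 21448 features were lower at that limit. It became 3 after quantile normalization, where 7.1% of all features were. The family median of -0.405 was -0.28 after quantile normalization with and without the trend, -0.49 at or above the median and -0.5025 to -0.3075 with 1 array left out. A fit without 1 array assumes that the lone array varies like the other group and has 1 residual degree of freedom. Dim features, E2F6 among them, limit what can be seen.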

Other observations

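Measured genes outside the family were grouped by the 2 E2F motifs in their RefSeq promoter windows, a grouping made after the family values were seen. Of 728 genes with TTTCGCG or TTTGGCG, 73.6% were lower in the inhibitor arrays and 22.7% were lower at an unadjusted p under 0.05 in limma, with a median log2 difference of -0.17. Of 13514 genes with neither, 62% were lower and 13.7% passed that limit, with a median of -0.09. After the second quantile normalization the medians were -0.06 and -0.01, and 11.3% and 7.49% passed. The genes with a motif were brighter, with a median level of 6.61 against 5.84, and the part of level in the difference was not tested. Genes with the CCAAT box had a median of -0.095, and genes with TTTGAA, the letters of the mitotic cell cycle homology element, one of -0.075.

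Only 11 measured genes outside the family held both motifs in 1 window, as E2F1, E2F2 and RBL1 do. Among them 4 were lower at an unadjusted p under 0.05 and 0 were higher, beside 14.1% and 4.09% of all measured genes with a window. MCM6, a subunit of the replicative helicase, had 6.50 and 6.49 on the control arrays, against 5.97 and 5.64 on the inhibitor arrays. MSH3, a mismatch repair gene, had 7.36 and 7.32, then 6.21 and 6.80. CDC25A differed by -0.71, the splicing factor gene SF3A2 by -0.57 and the DNA polymerase alpha subunit gene POLA2 by -0.255. MCM6, CDC25A and POLA2 were already counted among the G1 and S targets above. DNAJC5G differed by -0.355, SLC30A3 by -0.18 and ZNF444 by -0.04. The 3 with values above 0 were DSTYK at 0.265, whose inhibitor arrays both lay above the controls, TTC23L at 0.155 and MYCN at 0.10. These genes were named after their values were seen.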
